A study of Mus musculus with 14 samples.

Results

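Expression of 9 genes was followed through embryoid body (EB) formation in a pair of mouse embryonic stem cell (ESC) lines. The genes were taken by symbol from a fixed list, drawn up with earlier results of these data known: the receptors Pdgfra and Pdgfrb, the surface proteins Thy1 and Fap, and the matrix genes Postn, Tnc, Thbs1, Thbs2 and Vcan. All 9 were found among the 16181 genes for which normalized counts were deposited. Only Pdgfra, Pdgfrb, Thy1 and Fap encode proteins held in the cell membrane. The products of Postn, Tnc, Thbs1, Thbs2 and Vcan are secreted into the matrix between cells, so the set is one of mesenchymal surface and matrix genes.

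The line labelled shLacZ expressed a short hairpin RNA (shRNA) against LacZ, a bacterial gene that serves as the control, and the line labelled shDis3l2 expressed an shRNA against Dis3l2, a ribonuclease that degrades uridylated RNA. Both were sampled at d0 as undifferentiated ESCs in LIF/2i and then every 2 days up to d12 as EBs, aggregates that formed in hanging drops with serum after LIF and 2i had been removed and then grew in suspension. There were 14 libraries of polyA RNA, 1 per line and day. The methods describe a stable knockdown made earlier and place the differentiation work in an ESC line with an Osr1-GFP reporter. Whether each line was a single clone is not stated.

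PDGF receptors are tyrosine kinases at the cell surface that bind dimers of platelet-derived growth factor. PDGFRα binds most of the ligands and marks primitive endoderm and early mesoderm as well as fibroblast precursors, whereas PDGFRβ is known from pericytes and vascular smooth muscle. Periostin, tenascin-C, the thrombospondins and versican are matrix proteins that embryonic mesenchyme secretes while tissues form, and fibroblast activation protein (FAP) is a membrane peptidase of activated fibroblasts.

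Between 7178712 and 39888099 reads per library were counted on genes. Levels are given as CPM, counts scaled to 1e6 of these totals. Folds between 2 libraries have exact 95% intervals that cover counting error only, and a count of 0 was set to 3 reads, which makes the fold a lower bound. Libraries are called by their labels, which the Dis3l2 RNA bore out only in part. Dis3l2 was at 28.7, 15.8, 22.0, 23.8, 20.2, 19.2 and 19.7 CPM in shLacZ from d0 to d12. In shDis3l2 it was at 3.93, 4.44, 7.05, 13.1, 19.6, 18.3 and 14.9 CPM. At d8 and d10 the line labelled shDis3l2 held 0.971 times (0.837 to 1.13) and 0.95 times (0.788 to 1.15) the control level, so these libraries carried no lower level of the targeted RNA, and every direction drawn from them rests on the label.

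The clearest pattern of the set was a matrix group, Postn, Tnc, Thbs2 and Vcan, that ended far higher in shDis3l2 EBs. Promoter sequences from RefSeq (GRCm38.p6) were at hand for these 4 genes and for Pdgfra, whose level stayed close between the lines. They are shown because the 4 genes were all at least 3-fold higher in shDis3l2 at d8, d10 and d12, which Pdgfra was not. Each line holds the 250 bases before the start of transcription, 5′ to 3′ on the strand of the gene, and capitals mark matches to TATAAA or GGGCGG on either strand. The regions are chr3:54360857-54361106 (plus strand) for Postn, chr4:64047016-64047265 (minus strand) for Tnc, chr17:14694263-14694512 (minus strand) for Thbs2, chr13:89742513-89742762 (minus strand) for Vcan and chr5:75152001-75152250 (plus strand) for Pdgfra.
Postn: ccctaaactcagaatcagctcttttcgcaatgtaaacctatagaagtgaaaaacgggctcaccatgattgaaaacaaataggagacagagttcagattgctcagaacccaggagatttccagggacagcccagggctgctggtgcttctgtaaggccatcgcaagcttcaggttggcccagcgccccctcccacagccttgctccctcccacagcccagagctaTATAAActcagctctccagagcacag
Tnc: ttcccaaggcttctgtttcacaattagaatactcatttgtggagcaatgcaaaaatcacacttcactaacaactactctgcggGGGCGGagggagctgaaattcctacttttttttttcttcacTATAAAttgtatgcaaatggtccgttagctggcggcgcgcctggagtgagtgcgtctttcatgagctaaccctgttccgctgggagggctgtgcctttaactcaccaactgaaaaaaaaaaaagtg
Thbs2: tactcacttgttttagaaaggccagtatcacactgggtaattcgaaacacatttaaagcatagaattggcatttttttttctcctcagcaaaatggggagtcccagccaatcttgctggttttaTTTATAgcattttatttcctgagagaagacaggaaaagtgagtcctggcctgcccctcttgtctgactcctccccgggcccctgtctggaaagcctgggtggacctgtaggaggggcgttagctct
Vcan: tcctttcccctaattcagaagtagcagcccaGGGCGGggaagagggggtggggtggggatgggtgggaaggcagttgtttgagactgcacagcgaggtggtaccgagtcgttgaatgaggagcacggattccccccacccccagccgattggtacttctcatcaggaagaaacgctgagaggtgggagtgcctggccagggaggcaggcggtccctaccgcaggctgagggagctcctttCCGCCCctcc
Pdgfra: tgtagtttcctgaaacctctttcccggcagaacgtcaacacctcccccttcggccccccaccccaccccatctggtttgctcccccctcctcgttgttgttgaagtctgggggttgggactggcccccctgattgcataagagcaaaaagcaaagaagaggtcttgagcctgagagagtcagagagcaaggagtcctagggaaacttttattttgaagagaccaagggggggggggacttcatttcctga

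TATAAA stood at -26 to -21 from the start in Postn, at -126 to -121 in Tnc, and at the same place on the other strand in Thbs2. GGGCGG, the GC box, was found at -167 to -162 in Tnc and at -219 to -214 and, on the other strand, -10 to -5 in Vcan. Neither motif occurred in the window of Pdgfra. The search also took in the first 50 bases after each start, where none of the 5 genes had a match. Of 32851 promoter windows of this whole length, 13.6% held TATAAA and 35.7% held GGGCGG. The AP-1 motif TGANTCA, the TEAD motif GGAATG and the CArG box were in none of the 5 windows and in 7.81%, 14.7% and 1.63% of all. TATAAA can lie inside a CArG box, and the other motifs do not contain one another. RefSeq lists another start for Postn 1842 bases upstream of the start in the count table, with no match, and another for Tnc 79 bases into the gene, whose window overlaps the one shown.

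Pdgfra (ENSMUSG00000029231, chromosome 5, 75152292 to 75198215 on GRCm38, as all positions here), the receptor with the widest ligand range, was nearly silent in ESCs and climbed through the whole series in both lines. It was at 0.326, 11.7, 86.8, 204, 303, 422 and 479.7 CPM in shLacZ from d0 to d12. The shDis3l2 libraries held 0.378, 10.2, 145.7, 174, 360.3, 523 and 628 CPM. The lines overlapped over d6 to d12, with shDis3l2 lower at d6 (0.857-fold, 0.807 to 0.910) and higher at d12 (1.31-fold, 1.26 to 1.36). The largest gap was at d4, at 1.68-fold (1.54 to 1.83). Scaling the totals by TMM, a factor that sets aside the most changed genes, gave 1.23-fold at d12, just outside the counting interval.

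Pdgfrb (ENSMUSG00000024620), the receptor of mural cells, separated the lines from d6. It was at 4.01, 2.80, 13, 55.7, 43.5, 22.5 and 39.1 CPM in shLacZ from d0 to d12. Its levels in shDis3l2 were 2.38, 2.20, 9.91, 153, 129, 97.5 and 99.9 CPM. Both lines reached their highest level at d6. From d6 on, the lowest shDis3l2 library lay above the highest shLacZ library, and the folds of the 4 late days were in turn 2.75 (2.52 to 3.01), 2.97 (2.74 to 3.23), 4.33 (3.72 to 5.06) and 2.56 (2.28 to 2.88). Up to d4 the level in shDis3l2 was the lower of the pair on each day, at 0.593-fold (0.436 to 0.799) at d0 and 0.765-fold (0.596 to 0.988) at d4.

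**Figure D1:**
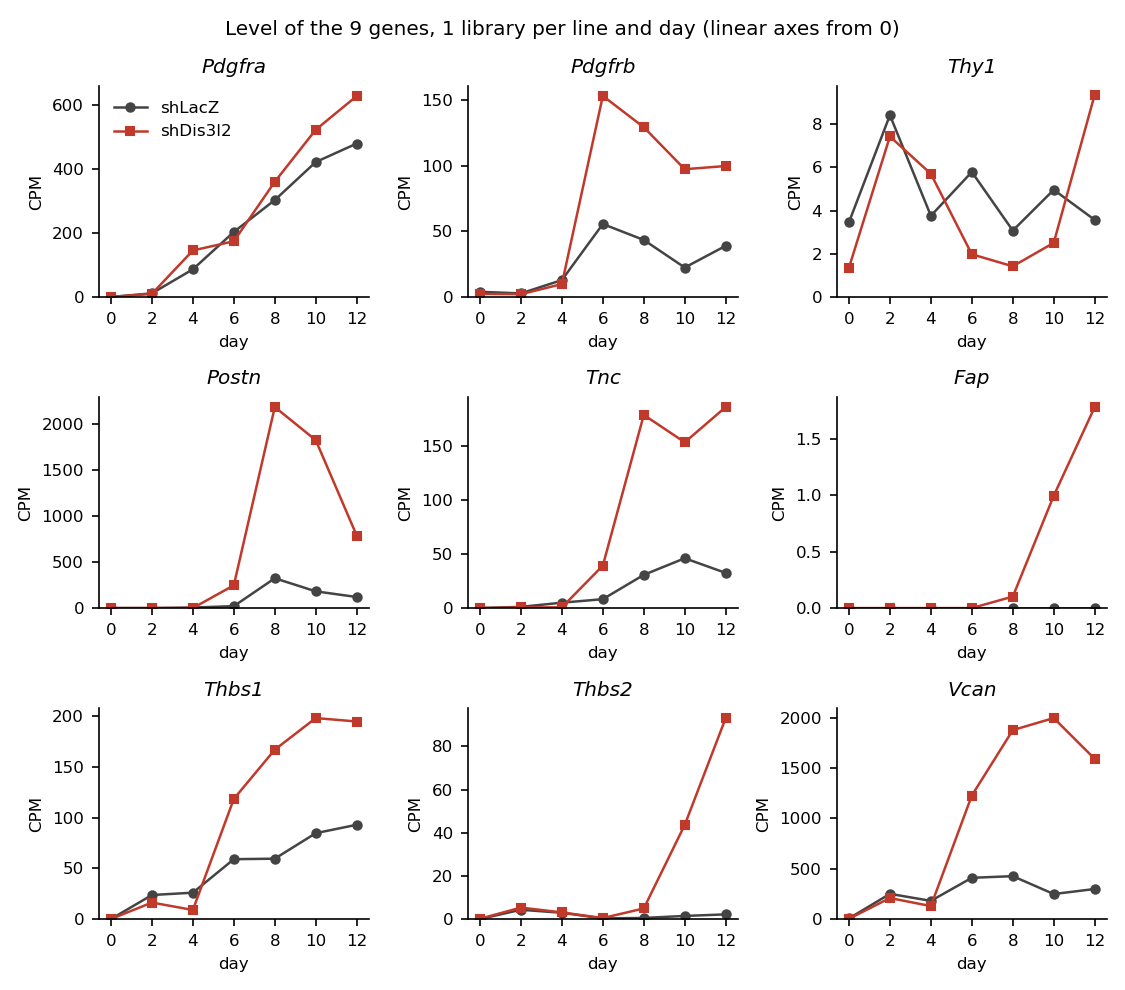
CPM of each gene (vertical axis, linear from 0) against day (horizontal axis), with grey circles for shLacZ and red squares for shDis3l2 and 1 library per point. Pdgfra ended at 479.7 and 628 CPM in the 2 lines, while Postn peaked at 324 and 2186 CPM at d8 and Vcan reached 427 and 1998 CPM.

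The balance of the receptors therefore differed between the lines. Compared per length of the gene model within a library, the ratio of Pdgfra to Pdgfrb was below 1 in ESCs, at 0.0444 (0.0231 to 0.0781) in shLacZ and 0.0867 (0.0397 to 0.170) in shDis3l2. At d4 it was 3.66 (2.94 to 4.60) in shLacZ and 8.04 (6.98 to 9.30) in shDis3l2. At d6 the order of the lines was the opposite, at 2.00 (1.84 to 2.17) in shLacZ and 0.622 (0.581 to 0.665) in shDis3l2, the only EB library in which Pdgfrb had more reads per length than Pdgfra. The ratio stayed lower in shDis3l2 through d8, d10 and d12, where shLacZ held 3.81, 10.2 and 6.71 and shDis3l2 1.52, 2.93 and 3.44.

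**Figure D2:**
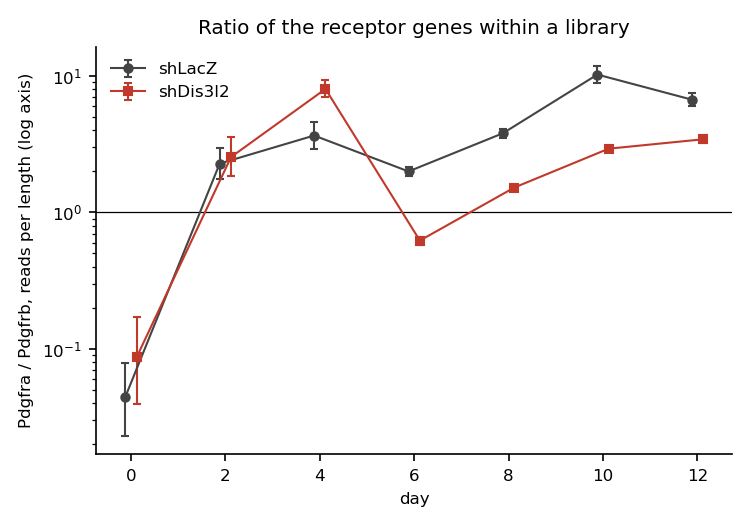
Ratio of Pdgfra to Pdgfrb in reads per length (vertical axis, logarithmic) against day, with exact 95% counting intervals as bars, grey circles for shLacZ and red squares for shDis3l2. The lines crossed between d4, where shDis3l2 stood at 8.04 and shLacZ at 3.66, and d6, where they stood at 0.622 and 2.00.

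Postn (chromosome 3, 54361109 to 54391037), whose product periostin binds integrins and collagen, reached the highest CPM of the set in any library, at d8 in shDis3l2. It was at 0.0251, 0.0379, 5.85, 21.0, 324, 182 and 120.3 CPM in shLacZ from d0 to d12, which at d0 and d2 was 1 read. The values in shDis3l2 were 0.189, 0.0467, 0.242, 248, 2186, 1826 and 788 CPM. Both lines peaked at d8. At d4 Postn was 24.2-fold (9.59 to 78.4) lower in shDis3l2, from 5 reads against 42, and 2 days later it was 11.8-fold (10.4 to 13.4) higher. The fold at d8, d10 and d12 was 6.74 (6.56 to 6.94), 10.0 (9.52 to 10.6) and 6.55 (6.17 to 6.97).

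Tnc (chromosome 4, 63959785 to 64047015), which encodes the adhesion-modulating glycoprotein tenascin-C, also turned from lower to higher in shDis3l2, at a lower level than Postn and without its decline after d8. It was at 0, 1.14, 5.01, 8.27, 30.8, 46.2 and 32.6 CPM in shLacZ from d0 to d12. In shDis3l2 it was at 0, 0.654, 0.676, 39.4, 179, 154 and 187 CPM. As for Postn, the order of the lines turned between d4, where Tnc was 7.41-fold (3.90 to 14.9) lower in shDis3l2, and d6, where it was 4.76-fold (3.85 to 5.93) higher. The later folds were in turn 5.82 (5.30 to 6.39), 3.33 (2.99 to 3.71) and 5.72 (5.08 to 6.44). No Tnc read was counted in either ESC library, which allows up to 0.0752 CPM in shLacZ and 0.113 CPM in shDis3l2.

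Thbs1 (chromosome 2, 118111876 to 118127133) encodes thrombospondin-1, an inhibitor of vessel growth that also activates TGF-β. It was at 0.0501, 23.7, 26.0, 59.1, 59.6, 84.7 and 93.0 CPM in shLacZ from d0 to d12. The shDis3l2 libraries held 0.0755, 16.3, 8.99, 119, 167, 198 and 195 CPM. Here too d4 and d6 differed in sign, with a fold of 0.345 (0.280 to 0.425) at d4 and 2.01 (1.83 to 2.20) at d6. The fold stayed between 2.01 and 2.80 from d6 to d12 and never reached 3.

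Thbs2 (chromosome 17, 14665500 to 14694262), which encodes the related thrombospondin-2, separated the lines later than the other matrix genes. It was at 0.0251, 4.32, 2.93, 0.301, 0.532, 1.45 and 2.18 CPM in shLacZ from d0 to d12. Its levels in shDis3l2 were 0.151, 5.33, 3.09, 0.471, 4.94, 43.7 and 93.2 CPM. In both lines it was thus present at d2, went down by d6 to 4 and 5 reads, and came back in shDis3l2. At d6 the fold of 1.57 had an interval of 0.337 to 7.90. From d8 the folds were in turn 9.27 (4.69 to 20.9), 30.1 (17.1 to 58.4) and 42.7 (28.0 to 68.5), the last of them the largest ratio of any of the 9 genes on a day.

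Vcan (chromosome 13, 89655312 to 89742509) encodes versican, a large proteoglycan that binds hyaluronan. It was at 6.49, 251, 181, 410.4, 427, 249 and 299 CPM in shLacZ from d0 to d12. The values in shDis3l2 were 3.06, 209, 129, 1228, 1878, 1998 and 1592 CPM. The level in shDis3l2 was the lower of the pair at d0, d2 and d4, at 0.471-fold (0.362 to 0.607), 0.834-fold (0.803 to 0.866) and 0.713-fold (0.667 to 0.762). It was the higher from d6, at 2.99-fold (2.90 to 3.09), 4.40-fold (4.29 to 4.52), 8.03-fold (7.68 to 8.40) and 5.32-fold (5.12 to 5.54). Exons of Pdgfra, Tnc and Thbs1 overlap other genes in the annotation, each of which had at most 0.0754% as many reads as the gene itself.

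Of the 2 other surface genes, Thy1 showed no lasting difference in 1 direction and Fap appeared late in shDis3l2. Thy1 (chromosome 9, 44043384 to 44048579), the glycoprotein also known as CD90, was at 3.46, 8.41, 3.76, 5.79, 3.08, 4.96 and 3.57 CPM in shLacZ from d0 to d12. In shDis3l2 it was at 1.36, 7.43, 5.70, 1.98, 1.42, 2.51 and 9.36 CPM. It was thus below 10 CPM throughout, lower in shDis3l2 at d6 (0.342-fold, 0.200 to 0.560), d8 (0.463-fold, 0.282 to 0.747) and d10 (0.506-fold, 0.330 to 0.780), and higher at d12 (2.62-fold, 1.78 to 3.95).

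Fap (chromosome 2, 62500943 to 62574075) was read in the last libraries of shDis3l2 alone. No read was counted in the 7 shLacZ libraries, where 3 reads correspond to between 0.0752 and 0.418 CPM. In shDis3l2 it had 0 reads up to d6 and then 2, 21 and 19, or 0.102, 0.995 and 1.78 CPM on the last 3 days. Against the floor of 3 reads in shLacZ this was at least 2.74-fold higher at d10 and at least 5.98-fold higher at d12.

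**Figure D3:**
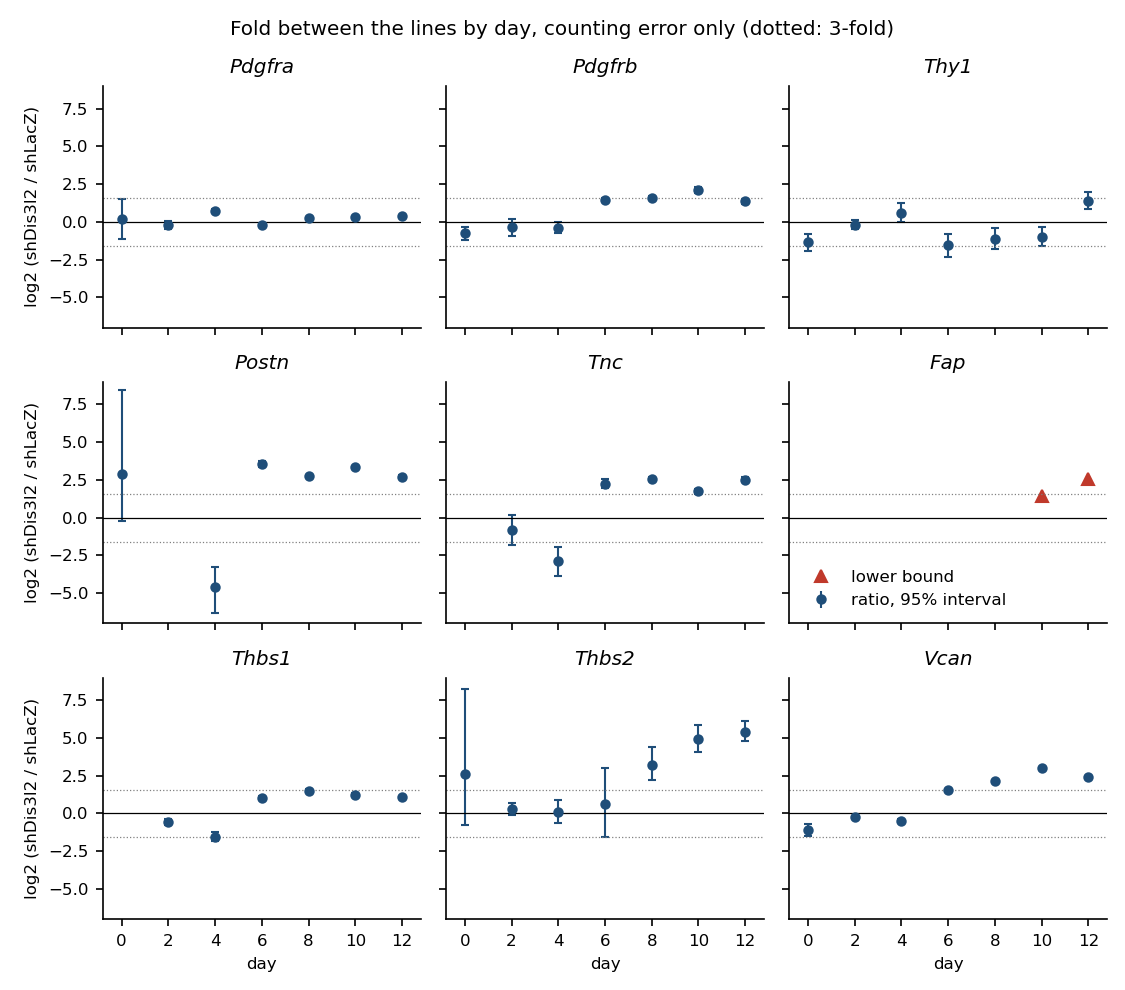
Log2 of the fold of shDis3l2 over shLacZ (vertical axis) against day for each gene, with exact 95% counting intervals as bars, triangles for lower bounds and dotted lines at 3-fold; days with at most 3 reads in both libraries have no point. Postn and Tnc sit below 0 at d4 and above it from d6, and Pdgfra stays within 1.68-fold on every day.

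A gene was counted as different on a day where the fold was at least 3 and 1 of the 2 libraries reached 1 CPM. At d0 none of 3 comparable members passed, against 0.592% of all genes higher and 2.36% lower in shDis3l2, and at d2 none of 7 passed, against 0.114% and 0.144%. At d4 Postn and Tnc were lower among 8, against 0.362% of genes higher and 1.68% lower. At d6 Postn and Tnc were higher among 7, against 2.73% higher and 4.26% lower. Vcan missed the criterion at d6, at 2.99-fold, and met it with DESeq2 size factors. Postn, Tnc, Thbs2 and Vcan were higher among 8 at d8, against 5.49% of genes higher and 3.76% lower. Pdgfrb joined these 4 at d10, when 8.62% of genes were higher and 3.15% lower. At d12 Postn, Tnc, Fap, Thbs2 and Vcan were higher among 9, against 8.17% of genes higher and 1.42% lower. Thbs2 at d8 and Fap at d12 reached 1 CPM in shDis3l2 alone, so neither could be counted as lower there. Postn and Tnc reached it at d4 in shLacZ alone and could not be counted as higher on that day. No member was at least 3-fold lower from d6 on. Thy1 came close at d6, at 0.342-fold (0.200 to 0.560), and stayed lower at d8 and d10, at 0.463-fold and 0.506-fold. The median log2 fold of the comparable members was -0.44 at d4 and over the 4 late days in turn 1.46, 1.86, 1.92 and 2.41. On these days that of all genes lay between -0.01 and 0.05. The members compared were 7 at d6, 8 at d8 and d10 and 9 at d12, so these medians do not follow 1 fixed set. The median at d12 includes Fap as a lower bound. At d0 the median of all genes was itself -0.32, so values below 0 on that day are to be read against that shift.

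Within each line the members were mostly later genes. From d0 to d12, 7 of 8 comparable members were at least 3-fold higher in shLacZ, where 31.6% of genes were, with Thy1 the exception at 1.03-fold (0.694 to 1.5). All 9 were in shDis3l2, where 43.0% of genes were. From d4 to d12, 5 of 8 were in shLacZ, against 10.5% of genes, and 8 of 9 were in shDis3l2, against 18.0%. Over that span Vcan went up 1.65-fold (1.55 to 1.76) in shLacZ and 12.3-fold (11.8 to 12.9) in shDis3l2, and Thbs2 was at 0.746-fold (0.391 to 1.43) in shLacZ and 30.1-fold (23.4 to 39.4) in shDis3l2.

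Per length of the gene model, Pdgfra led the set in shLacZ at d12, at 47.9 CPM per kilobase, before Vcan at 20.7, Thbs1 at 15.3, Postn at 13.8, Pdgfrb at 7.13, Tnc at 4.20, Thy1 at 1.19 and Thbs2 at 0.368. In shDis3l2 the order at d12 was Vcan at 110 CPM per kilobase, Postn at 90.6, Pdgfra at 62.7, Thbs1 at 32.1, Tnc at 24.0, Pdgfrb at 18.2, Thbs2 at 15.7, Thy1 at 3.13 and Fap at 0.314. At d0 Thy1 came first in both lines, at 1.16 and 0.454 CPM per kilobase. Over all libraries, 18 of 99 neighbours in such an order could not be separated by their counting intervals, among them Pdgfra and Vcan in shLacZ at d8 (ratio 1.03, 0.989 to 1.06) and Postn and Pdgfrb in shDis3l2 at d6 (ratio 1.02, 0.956 to 1.08).

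The lines were then compared over the 4 late days together with edgeR's quasi-likelihood test, with day as a block and Benjamini-Hochberg adjustment over all 17164 genes tested. The days of 1 series stood in for replicates, so the p-values measure the spread of the difference between days and not between cultures. The days from d6 were taken because the lines diverge there in these same data, so a difference over them was partly built in. The test called 19.6% of genes higher and 18.7% lower in shDis3l2. Of the 9 members, 7 were called higher and none lower. The fitted log2 fold was 3.06 (SE 0.16, adjusted p 0.000207) for Postn, 4.56 (SE 0.49, adjusted p 0.00101) for Thbs2, 2.27 (SE 0.21, adjusted p 0.000712) for Vcan and 2.25 (SE 0.14, adjusted p 0.000318) for Tnc by this edgeR test. It was 1.6 (SE 0.13, adjusted p 0.000525) for Pdgfrb and 1.19 (SE 0.09, adjusted p 0.0005) for Thbs1. Fap passed as well (adjusted p 0.0209), but with no read in shLacZ its fitted fold depends on the prior count and is not given, and it did not pass in DESeq2 (adjusted p 0.0684; its other adjusted p values ran from 0.00143 to 0.0727). Pdgfra, at 0.17 (SE 0.11, adjusted p 0.231), and Thy1, at -0.54 (SE 0.47, adjusted p 0.406), were not called, although Pdgfra was called higher without d6 (0.30, adjusted p 0.0133, with others up to 0.871) and Thy1 lower without d12 (-1.20, adjusted p 0.0130, with others up to 0.990). The median over the 9 members was 2.25 and that over all genes tested 0.02. The first of these counts Fap by its fitted fold, and without Fap it would lie between the values of Pdgfrb and Tnc.

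Without d8 and d10, the days on which Dis3l2 RNA was not lower, 4 libraries remained, and edgeR called 0 of 15950 genes and no member. In that fit 3149 genes had an unadjusted p under 0.05, and DESeq2 was not run on this subset. Postn was then at 3.10 and Vcan at 1.98, each with an edgeR adjusted p of 0.119. Over all alternatives the adjusted p ran from 1.32e-71 to 0.119 for Postn and from 1.52e-26 to 0.176 for Vcan. With all 7 days in the fit, no member was called either.

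Whether the difference itself changed from d0, d2 and d4 to the late days was tested as an interaction of line and period over all 14 libraries. The periods were cut where the lines part in these same data, so a change between them was partly built in. The edgeR test called 4.85% of 20050 genes as moved upward in shDis3l2, among them 6 members. The change in the log2 fold was 6.02 (SE 0.97, adjusted p 0.00807) for Postn, 4.09 (SE 0.50, adjusted p 0.00387) for Tnc, 4.01 (SE 0.72, adjusted p 0.0108) for Thbs2 and 2.68 (SE 0.29, adjusted p 0.00204) for Vcan. It was 2.06 (SE 0.27, adjusted p 0.00381) for Thbs1 and 1.95 (SE 0.22, adjusted p 0.00229) for Pdgfrb. Neither Pdgfra, at -0.24 (SE 0.23, adjusted p 0.562), nor Thy1, at -0.38 (SE 0.65, adjusted p 0.758), was called by edgeR. Fap was tested but not called (adjusted p 1), and with no read in shLacZ or before d8 its fit gave no usable fold. The value for Postn rested on d4: without that day it was 0.93 with an edgeR adjusted p of 0.803. With every day kept, Postn lost its call in DESeq2, at 3.62 with an adjusted p of 0.0893. Over all alternatives its adjusted p ran from 6.26e-41 to 0.803. Thbs2 lost its call without d2 (adjusted p 0.073), without d10 (0.052) and in DESeq2 (0.075).

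Ligands of the receptors were described beside them. The counts of called genes in this and the following partner lists are to be read against the 19.6% of all genes called higher and the 18.7% called lower. Of the 4 PDGF genes, Pdgfa and Pdgfc were called higher over d6 to d12 and Pdgfb and Pdgfd were not called. Pdgfc, which encodes a ligand that is cleaved to become active, was at 10.6, 10.4, 11 and 8.83 CPM in shLacZ from d6 to d12. The shDis3l2 libraries held 33.7, 32.5, 29.7 and 27.2 CPM, above shLacZ on each day, with a log2 fold of 1.58 (SE 0.10, edgeR adjusted p 0.000318). Pdgfa, a ligand of PDGFRα, went from 102 and 108 CPM in the ESCs of the control and the knockdown to 7.85 and 8.41 CPM at d2, and over the late days its log2 fold was 0.72 (SE 0.17, edgeR adjusted p 0.0176). Pdgfb, at -0.10 (SE 0.28, edgeR adjusted p 0.803), and Pdgfd, at -0.32 (SE 0.22, edgeR adjusted p 0.296), gave values below 0.

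Of 6 genes for ligand activation and co-receptors, Plau, Nrp1 and Lrp1 were called higher and Sparc lower. Plau, a protease that cleaves PDGF-DD, had a log2 fold of 1.59 (SE 0.17, edgeR adjusted p 0.000943), and Lrp1, an endocytic receptor that pairs with PDGFRβ, one of 1.52 (SE 0.13, edgeR adjusted p 0.000557). Sparc, a matrix protein that binds PDGF, fell by 0.63 on the log2 scale (SE 0.07, edgeR adjusted p 0.00122). Among 12 signalling genes, Shc1, Plcg1, Pik3ca and Rasa1 were called higher and 8 were not called, with a median of 0.16. The most abundant of them were Ptpn11 at 0.01 (SE 0.07), Crk at 0.08 (SE 0.07) and Plcg1 at 0.27 (SE 0.06).

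All 9 periostin partners, a list of its relative Tgfbi, its binding proteins and the TGF-β genes, were called higher, with a median of 1.22. Tgfbi was at 24.0, 20.3, 41.0 and 32.8 CPM in shLacZ from d6 to d12. Its levels in shDis3l2 were 117, 247, 319 and 278 CPM, and the log2 fold was 2.98 (SE 0.20, edgeR adjusted p 0.000339). Tgfb3, a TGF-β ligand, ended at 67.4 CPM in shDis3l2 against 2.38 in shLacZ, with 3.92 (SE 0.48, edgeR adjusted p 0.00152). Fn1, encoding fibronectin, had 1.49 (SE 0.15, edgeR adjusted p 0.000856), Bmp1, a procollagen protease, 1.12 (SE 0.13, edgeR adjusted p 0.00127) and Itgav, an integrin chain, 0.21 (SE 0.07, edgeR adjusted p 0.0441).

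Of the 13 genes tied to versican and hyaluronan, 10 were tested, 5 were called higher and 2 lower. The versican-cleaving proteases Adamts5, at 3.40 (SE 0.27, edgeR adjusted p 0.000494), and Adamts1, at 1.70 (SE 0.36, edgeR adjusted p 0.0104), were called higher, as were the hyaluronan synthase Has2, the hyaluronan receptor Cd44 and Fbln1. Has3, another hyaluronan synthase, and Ncan, a proteoglycan of the nervous system, fell by 1.38 and 1.94 on the log2 scale. Adamts9, the most abundant of the group, was not called, at 0.21 (SE 0.35). Of 6 other thrombospondins and receptors, Thbs3, Cd47 and Lrp1 were called higher, while Thbs4, Comp and Cd36 were not called. Tnxb was the single tested member of the other tenascins, at no more than 3.28 CPM, with 2.44 (SE 0.50, edgeR adjusted p 0.0132). Tnn, at a mean of 0.193 CPM, was not tested.

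Other mesenchymal surface genes were higher in 8 of 11 cases, with a median of 1.26. Vcam1, an adhesion receptor, was at 0.301, 1.89, 5.08 and 5.95 CPM in shLacZ from d6 to d12. The values in shDis3l2 were 4.24, 16.0, 53.6 and 48.7 CPM, and the log2 fold was 3.21 (SE 0.15, edgeR adjusted p 0.000189). Cd248, known from stromal cells and pericytes, had 2.40 (SE 0.09, edgeR adjusted p 0.000179) and Alcam 2.40 (SE 0.27, edgeR adjusted p 0.0011). Of the 3 most abundant genes of the group, Itgb1, an integrin chain, had 0.47 (SE 0.10, edgeR adjusted p 0.0114), Mcam 0.76 (SE 0.12, edgeR adjusted p 0.00315) and Eng, a TGF-β co-receptor, -0.27 (SE 0.14, edgeR adjusted p 0.164). Ly6a and Nt5e were not called either. Of the 4 peptidases related to Fap, Dpp8 was called higher, Dpp4 fell by 1.31 on the log2 scale (SE 0.09, edgeR adjusted p 0.000339), and Dpp9 and Prep were not called. Dpp4, the closest relative of Fap, thus had the lower levels in shDis3l2 where Fap was read.

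**Figure D4:**
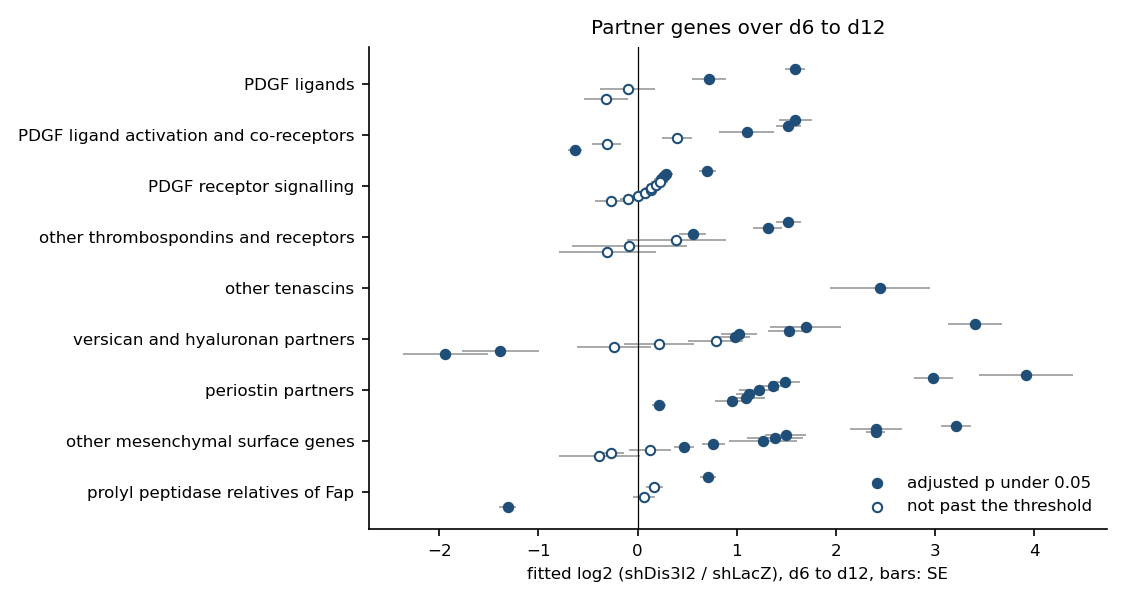
Fitted log2 fold of shDis3l2 over shLacZ across d6 to d12 (horizontal axis, bars are SE) for each tested gene of the 9 partner groups (vertical axis), filled where the edgeR adjusted p was under 0.05. The SE was calculated back from the F statistic of the test. All 9 periostin partners lie above 0, and among 12 PDGF signalling genes the median is 0.16.

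Markers of cell types moved with these genes. Among all genes, 19.6% were called higher and 18.7% lower by the same test. All 10 mesenchyme-like markers were called higher over d6 to d12, with Col1a1 at 3.46 (SE 0.28, edgeR adjusted p 0.0005) and a sum between 143 and 1367 CPM in shLacZ and between 755 and 16081 CPM in shDis3l2. Of 8 pericyte and smooth muscle-like markers, 6 were called higher, with Acta2 at 3.49 (SE 0.17, edgeR adjusted p 0.000189) and sums of 170.3 to 287 CPM and 624 to 2293 CPM. Acta2 alone held 1838 of the 2293 CPM, reached at d8 in shDis3l2. The 2 not called were Kcnj8 (edgeR adjusted p 0.0781) and Abcc9 (edgeR adjusted p 0.136), both at low levels. Of 10 primitive and visceral endoderm-like markers, 9 were called lower, with Gata4 at -0.90 (SE 0.06, edgeR adjusted p 0.00036) and sums of 3005 to 5153 CPM and 759.6 to 1780.4 CPM. Their part in the values of the 9 genes was not tested, and in such bulk samples fewer cells of a type and less RNA per cell cannot be told apart. At d4, where Postn, Tnc and Thbs1 were lower in shDis3l2, the mesenchyme-like sum was 29.1 CPM there against 45.7 CPM in the control. The largest falls in that list, as differences in CPM, were in Col3a1 (0.870 against 12.3 CPM) and Col1a1 (1.06 against 7.94 CPM). By ratio Lum fell most (0.0483 against 1.53 CPM), with its value in shDis3l2 under the floor of 3 reads. Not lower were Twist1 (19.1 against 15.7 CPM), Col1a2 (5.07 against 4.74 CPM) and, at under 1 CPM, Snai2 (0.676 against 0.418) and Twist2 (0.580 against 0.557). The endoderm-like sum was 385 against 889.7 CPM on that day, and the early mesoderm-like sum 1905 against 1052 CPM.

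In the other marker lists too, the counts are to be read against the 19.6% of genes called higher and the 18.7% called lower. Of the 8 neural-like markers 4 were called lower, of 6 tested early mesoderm-like ones 4 lower and Kdr higher, and of 6 pluripotency-like ones 5 lower. Of 5 tested cardiomyocyte-like markers 4 were called higher, of 6 blood-like ones 2 and of 6 endothelial-like ones 1, the last at about the share of all genes. The pluripotency-like sum was between 326 and 489.8 CPM in shLacZ and between 50.6 and 333 CPM in shDis3l2 over d6 to d12.

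**Figure D5:**
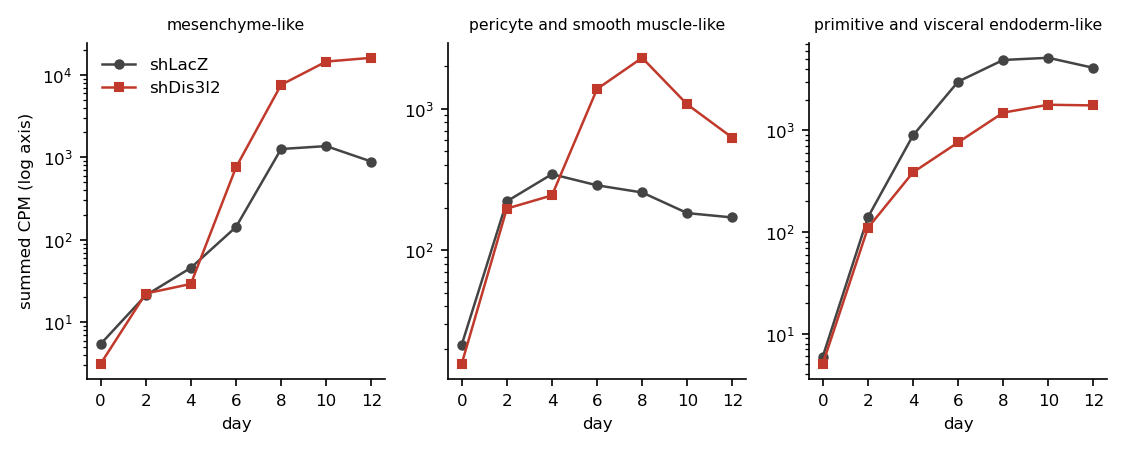
Summed CPM of 3 marker lists (vertical axes, logarithmic) against day, with grey circles for shLacZ and red squares for shDis3l2. From d6 the mesenchyme-like and the pericyte and smooth muscle-like sums are higher in shDis3l2, and the endoderm-like sum, at 759.6 to 1780.4 CPM, is lower than in shLacZ.

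The genes whose profile over the 14 libraries was most like each member were named by Pearson's r of log2(CPM + 1), as a description, since the libraries of 1 line are successive days of 1 series. Gata6, a factor of primitive endoderm and cardiac mesoderm, was closest to Pdgfra (r = 0.99), followed by Daglb and Tm9sf3. Adamts17, Capn6 and Tspan18 were closest to Pdgfrb (r = 0.99 for each). Col3a1, a fibrillar collagen of embryonic connective tissue, was among the 3 closest to both Postn (r = 0.99, after Adam12) and Tnc (r = 0.99, before Dlk1). The remaining gene was P4ha3 for Postn and Ebf4 for Tnc (r = 0.99 for each). Mgp, Agtr2 and Fibin were closest to Fap (r between 0.97 and 0.98), and Epha8, Kcp and the collagen cross-linking enzyme Lox to Thbs2 (r between 0.94 and 0.98). Fap had 2, 21 and 19 reads in shDis3l2 at d8, d10 and d12 and none elsewhere, so every r with Fap rests on these few libraries. Zfp148, Zhx3 and Usp40 were closest to Thbs1, none of which stayed among its 3 closest with a pseudocount of 0.25, and Psd3, Laptm4a and Hipk3 to Vcan. Thy1 had the weakest neighbours, Inip (r = 0.86), Ccdc117 (r = 0.86) and Sgsm3 (r = 0.85). Among the 36 pairs of members, Postn with Tnc (r = 0.99) and Thbs1 with Vcan (r = 0.97) were the most alike. Pdgfrb with Postn (r = 0.92) came next, and Thbs2 was closest to Fap (r = 0.89). Without the libraries of d0, Postn with Tnc stayed at 0.99, while Thbs1 with Vcan was at 0.88. Thbs1 was then closest to Tnc (r = 0.97).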

How the data were processed

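PolyA RNA of 14 libraries was sequenced, a single one for each line and day. Alignment to GRCm38 (Ensembl release 88) with Subread and counting with featureCounts were done by the authors, and the deposited counts are whole reads for 50686 genes. Whether strand was used in counting is not given in the sources used here. The deposited CPM of 16181 genes, made by the authors with edgeR, equalled the CPM of the count plus 0.25 over those genes and served to define the genes compared. The columns of the shDis3l2 line carry another name for the hairpin in the files, which was tied to the label through the study's supplementary header.

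CPM was computed here as the count over the library total, and 3 reads correspond to 0.0752 to 0.418 CPM. Intervals (exact Clopper-Pearson, 95%) and floors cover counting error only, since without molecular identifiers reads are not independent molecules. A fold of at least 3 with at least 1 CPM in 1 of the 2 libraries was counted as different. edgeR 4.0.16 in R 4.3.3 (quasi-likelihood test with TMM and filterByExpr, called at a Benjamini-Hochberg adjusted p under 0.05) compared the lines over the 4 days from d6, each day being a block, and tested the change from the 3 earlier days. The SE given with edgeR values is the absolute log2 fold over the square root of the test's F statistic, not an error taken from the model. DESeq2 1.42.0, other scalings, filters, minimum levels and leaving out days were the alternatives. Likeness was computed on log2(CPM + 1) against genes of the CPM table with at least 10 CPM in 1 library. The tests were also run on simulated counts, drawn independently around the means of each day with planted changes. Such counts carry no relation between successive days of 1 series, so they cannot check the use of days as replicates. Python 3.11.15 with pandas 2.3.3, scipy 1.17.1, numpy 2.4.6 and, for plots, matplotlib 3.10.9 did the rest.

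The 9 genes and all lists were chosen with earlier results of these data known. The text names the members, Dis3l2, the 3 most abundant genes of each partner group and those at least 3-fold changed in 1 direction at both d10 and d12, and the 3 genes most like each member. Markers and partners named besides these serve as examples and were chosen after their values were seen.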

Additional observations from a re-analysis of the deposited data

Results flagged for a closer look

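For 6 of the 9 genes the difference between the lines changed between the first 3 and the last 4 days by the edgeR test of the interaction, as given above. The cut between the periods was placed where the lines part in these data, so these calls are no independent test of a change. The log2 fold of shDis3l2 over shLacZ moved upward by 6.02 for Postn, 4.09 for Tnc, 4.01 for Thbs2, 2.68 for Vcan, 2.06 for Thbs1 and 1.95 for Pdgfrb. For Postn, Tnc, Thbs1, Vcan and Pdgfrb the direction at d4 was the opposite of that at d6 beyond counting error, with a single library per line on each day.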

How the results depend on the processing

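The call of each member over d6 to d12 held with library totals, without a filter, over the genes of the CPM table and, apart from Fap, in DESeq2. Leaving out 1 day at a time gave 1695 to 3441 genes higher and 1641 to 3237 lower, 6 to 8 members higher and 0 to 1 lower. Without day 8 there were 1784 higher and 1665 lower, and without day 10 there were 1695 and 1641. Without d8 and d10 there were 0 genes higher, 0 lower and 0 members, and over all 7 days 382 higher, 765 lower and 0 members. For the change between periods, 1788 genes were called upward without a filter, and 415 downward with library totals, against 972 and 1051. Leaving out 1 day gave 315 to 1169 upward and 209 to 982 downward, and 5 to 6 members upward, with the lowest counts without d2. Without a minimum CPM, 2 members were at least 3-fold higher at d0, against none. No member fold reversed under another scaling. The counts of genes past 3-fold at d0 turned with the scaling, from 72 higher and 287 lower to 137 and 173 with TMM and 181 and 134 with DESeq2 size factors. From d0 to d12 in shDis3l2, DESeq2 size factors gave 4062 genes higher against 6134. A minimum of 5 CPM or none moved 22 gene counts by over 1.5 times. With the minimum of 5, Thbs2 no longer counted as higher at d8, nor Fap at d12. That minimum also left fewer members to compare on every day but d6, such as 1 against 3 at d0 and 6 against 8 at d8. The cause was not tested. Without the ESC libraries, the 3 genes most like a member were all different for Pdgfra and Vcan. With a pseudocount of 0.25 they were all different for Thbs1, and 1 of 3 was shared for Pdgfra.

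The fits over the days paired the lines by day, with day as the block, and no fit without that block was run. With 1 library per line and day, the line and the culture cannot be told apart, and low counts limit Fap, Thy1 and the early values of Postn and Thbs2.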
